A study of Mus musculus with 6 samples.

Results

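Endothelial cells (ECs) sorted with a Cxcl12 reporter from fetal mouse lungs at embryonic day 18.5 (E18.5) were set against ECs found among all the cells of an unsorted lung library of the same age. Of the 63659 barcodes in the series, 11804 were used: 9083 ECs of the sorted library and 2721 ECs of the unsorted library, out of 18699 cells that passed the quality limits in these libraries. A cell was kept with at least 700 genes and with 0.5 to 10% of its unique molecular identifiers (UMIs, 1 per captured mRNA) from mitochondrial genes, and it counted as an EC with at least 3 UMIs of Pecam1, Cdh5 and Cldn5 together and at most 2 UMIs of Col1a1 and Col3a1 together. These genes chose the cells, so their levels are not results. Few cells lay near the limits: 27 sorted and 15 unsorted ECs had exactly 3 endothelial UMIs, and 23 and 46 cells fell 1 UMI short.

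CXCL12 is a secreted chemokine that signals through the receptor CXCR4 and is removed by the scavenging receptor ACKR3. In the developing lung its gene is active in arterial endothelium and in mesenchyme beside large vessels. Arteries carry blood at high flow, while the capillary bed holds general capillary cells, which include the dividing and repairing cells of the bed, and alveolar capillary cells, the large thin cells of the air-blood barrier marked by Car4. A reporter sort is read as a way to enrich one of these populations, and the comparison asks which genes and cells it enriched and which it lost.

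The sorted library came from Cxcl12DsRed/+ lungs, in which the reporter allele carries DsRed in the Cxcl12 gene, and lungs of several embryos were pooled. According to the study's methods, cells with the reporter and CD31 and without CD45 and EpCAM were gated, and CD31-negative reporter cells, enriched for mesenchyme, were collected as well. Neither the reporter transcript nor the gate was in the count tables. The protocol text of the labels describes the sort for every sample, but the titles of the libraries labelled by genotype name no sort. The study reports whole lungs for these. They are called unsorted here because they held many epithelial, immune and mesenchymal cells. The unsorted library is labelled as homozygous null (Cxcl12DsRed/DsRed), and a further unsorted E18.5 library is labelled as a heterozygous control (Cxcl12DsRed/+). The data went against these labels: ECs held 541 Cxcl12 CPM (UMIs of the gene per 1000000 UMIs of all ECs of the library; exact 95% Poisson interval 533 to 550) in the library labelled homozygous null and 4.47 CPM (3.53 to 5.58) in the library labelled heterozygous control. The files deposited for the library labelled homozygous null are themselves named as heterozygous, and those of the other as knockout, so the labels of this pair may be exchanged. Because Cxcl12 was its reason for being chosen, the unsorted library labelled homozygous null is compared here under that name, and its genotype is not stated. The other unsorted library carries a different genotype label and nearly lacked Cxcl12, so it is not a repeat of the first. Libraries of sorted lungs at E15.5 and postnatal day 8 (P8) gave context, and the sorted E13.5 library held only 168 ECs. Each library was a single sample, so no difference has a replicate check and none was tested. Intervals cover counting error only.

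The libraries differed in which cells they held. ECs made up 95.2% (Clopper-Pearson 95% interval 94.7 to 95.6%) of kept cells in the sorted library and 29.7% (28.8 to 30.7%) in the unsorted one, which held many other cells. Among kept cells without a UMI of the 3 endothelial genes, 357 in the unsorted and 16 in the sorted library had at least 3 UMIs of Epcam and Cdh1 (epithelial), 494 and 8 had at least 2 of Ptprc (immune), and 3347 and 158 had at least 10 collagen UMIs (mesenchymal). The median EC held 5636 UMIs in the sorted library and 8408 in the unsorted one, so shares of cells were taken after thinning each cell to 2000 UMIs, which left out 148 sorted and 26 unsorted ECs. The libraries shared 20 barcodes, 5 of them ECs in both. All 16 general endothelial genes were measured, such as Egfl7, Tie1 and Robo4, and none differed 2-fold, with a median log2 ratio of 0.13 (sorted over unsorted, with 0.5 CPM added to each level) beside 0.05 over all genes; the median was -0.03 with counts adjusted for free RNA.

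Cxcl12 itself, as the gene of the sort, is described only. Its EC level was 1231 CPM (1222 to 1240) in the sorted library and 541 CPM in the unsorted one. At 2000 UMIs per cell, 48.3% (47.3 to 49.4%) of sorted and 28.6% (26.9 to 30.4%) of unsorted ECs held a Cxcl12 UMI. More sorted ECs were therefore without a detected Cxcl12 UMI than with one. In unsorted epithelial cells, which should lack it, 0 of 355 cells held one, which allows a share of up to 0.845%, and 24.3% of 222 cells without endothelial UMIs in the sorted library did.

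**Figure D1:**
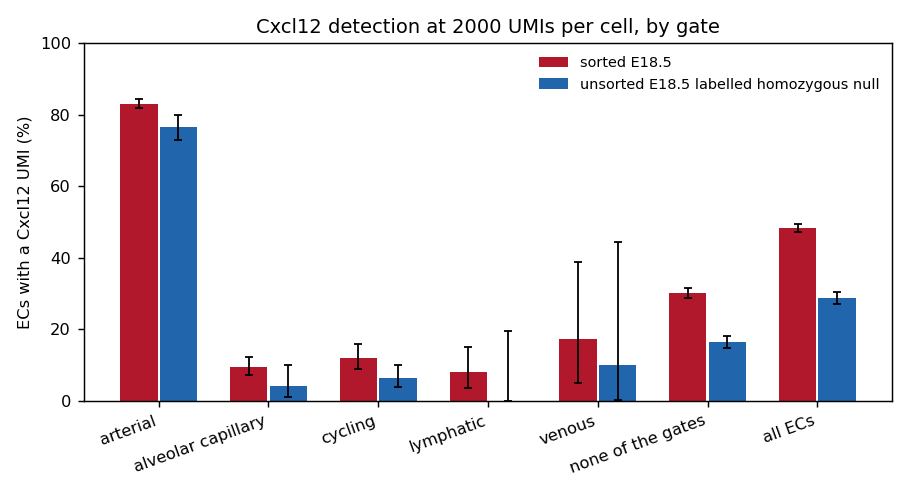
Share of ECs with at least 1 Cxcl12 UMI (percent, after thinning to 2000 UMIs) in each gated group and in all ECs of the sorted and the unsorted library; bars are shares and lines are exact 95% intervals. Detection was highest in arterial-gated ECs, 83.1% sorted and 76.6% unsorted, and under 20% in the alveolar capillary, cycling, lymphatic and venous gates.

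Among 8501 genes of at least 10 CPM in either library's ECs, 118 (1.39%) were at least 2-fold higher in the sorted ECs and 205 (2.41%) at least 2-fold lower. The counting intervals of all 118 and all 205 ratios lay outside 0. With this many UMIs a 2-fold ratio could hardly do otherwise, so this adds no support. Over all 8501 genes, 3498 had intervals above 0 and 2200 below 0. Against the other unsorted library, 94 of the 118 and 168 of the 205 kept a 2-fold difference in the same direction. Nearly all genes therefore lay within 2-fold, and what follows gives the genes by vessel type.

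Arterial genes lay mostly higher in the sorted ECs. Of 19 measured genes of distal arteries, 18 lay above 0 and 2 were at least 2-fold higher, and of 14 genes of proximal arteries, 12 lay above 0 and 5 were at least 2-fold higher; no arterial gene was 2-fold lower. Over all 8501 genes 4977 lay above 0 and 1.39% were at least 2-fold higher. The median log2 ratios were 0.66 and 0.90. Gja4, a gap junction protein of arteries, was at 1010 CPM (1002 to 1018) in sorted ECs, 516 CPM (508 to 525) in unsorted ECs and 263 CPM (255 to 271) in the other unsorted library, a log2 ratio of 0.97 (0.94 to 0.99). Stmn2, a microtubule regulator listed with the distal arterial genes, was at 971, 464 and 238 CPM, a log2 ratio of 1.06. Both followed the same order, sorted above both unsorted libraries, and the unsorted libraries differed from each other as well.

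Atp13a3, an endolysosomal cation transporter, had the highest ratio of the distal list, with 179 CPM in sorted and 63.7 CPM in unsorted ECs (log2 1.49, 1.42 to 1.57). Sox17, a transcription factor that sets arterial identity, was at 862 and 543 CPM (log2 0.66). Alox12, a lipoxygenase, was at 50.8 and 36.5 CPM (log2 0.47). In the proximal list, the wall proteins Fbln5 (874 against 345 CPM, log2 1.34) and Fbln2 (log2 1.10), the WNT inhibitor Dkk2 (80.4 against 31.8 CPM, log2 1.32) and Gkn3 (21.8 against 7.72 CPM, log2 1.44) were more than 2-fold higher. Cytl1, a secreted cytokine-like protein, was at 54.0 and 17.6 CPM (log2 1.59), and was higher in every library whose count table names the same software version as the sorted E18.5 table. Gja5, the other arterial gap junction gene, was at 105 CPM (102 to 107) in sorted, 91.5 CPM (88.0 to 95.1) in unsorted and 44.6 CPM in the other unsorted ECs, log2 ratios of 0.19 and 1.22. Mgp and Fn1, which mesenchymal cells also make, lay below 0 (log2 -0.27 and -0.99). Against the other unsorted library Mgp had 0.61 and Fn1 -1.54. The free RNA expected for Fn1, estimated as described further on, was 132% of its unsorted level. It was 117% for Eln and 368% for Lox of the same list, which lay above 0. More than the whole level cannot hold, so nothing is read from these values. Fn1 had -0.24 with barcodes that Scrublet called as mixed cells left out and -0.65 with counts adjusted for free RNA. In ECs without immune, airway or alveolar type 2 UMIs it had 0.46. The cause was not tested.

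Gates set on UMIs gave the share of cells behind these levels; a gate is a range of counts, not a cell type. With at least 3 UMIs of Gja4, Gja5, Bmx and Dkk2 together after thinning, 38.7% of sorted ECs (3462 of 8935; 37.7 to 39.8%) were arterial-gated against 23.0% of unsorted ECs (620 of 2695; 21.4 to 24.6%), a difference of 15.7 percentage points (13.1 to 18.3). In the other unsorted library the share was 12.2% (10.7 to 13.8%). Cells at the minimum or 1 UMI under it numbered 1730 in the sorted and 345 in the unsorted library. In cells taken as not endothelial, the same gate took 0.901% in the sorted library (222 cells without endothelial UMIs, median 8449 UMIs) and 0% in the unsorted one (355 epithelial cells, median 17771 UMIs). The former held many mesenchymal cells, so the cells checked were of unlike types.

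Part of the arterial ratios went with the shares of gated cells. When the sorted library was reweighted to the unsorted library's shares of each gated group, the median log2 ratio of the distal list was 0.47 in place of 0.66 and that of the proximal list 0.56 in place of 0.90. Within arterial-gated cells the medians were 0.18 and 0.26, and within cells of none of the gates 0.65 and 0.90. Gja4, Gja5, Bmx and Dkk2 set the gate, and their values there are not read. Without them, 18 distal and 11 proximal genes had medians of 0.45 and 0.69 after reweighting, and 0.16 and 0.29 within arterial-gated cells. Among these, Stmn2 had a log2 ratio of 0.25 in arterial-gated cells and 1.20 in ungated cells, while Atp13a3 had 0.74 and 1.64. Over all genes, 70 of the 118 higher and 150 of the 205 lower genes kept a 2-fold difference after the reweighting.

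**Figure D2:**
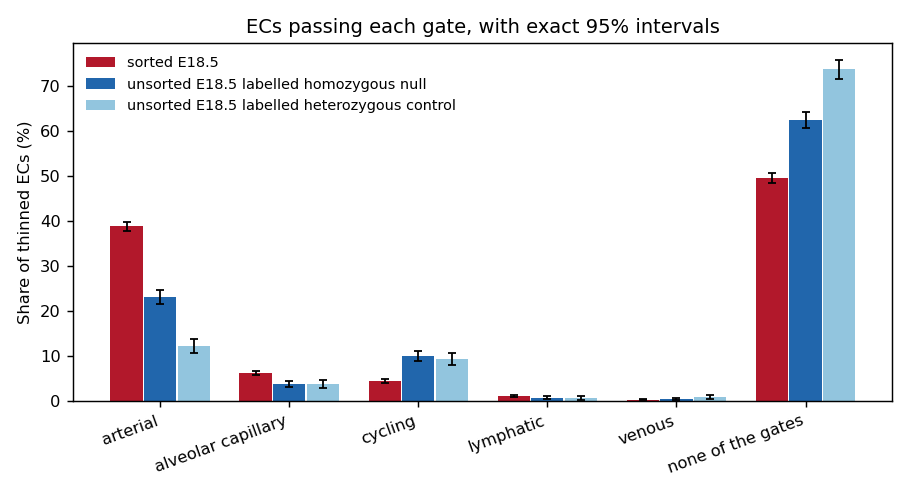
Share of ECs in each gated group (percent of ECs thinned to 2000 UMIs) in the sorted E18.5 library and both unsorted E18.5 libraries; lines are exact 95% intervals. The arterial share was 38.7% in the sorted library, 23.0% and 12.2% in the unsorted ones, and the cycling share was 4.28%, 9.91% and 9.25%.

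A second view came from within the unsorted library, where 772 thinned ECs with a Cxcl12 UMI were set against 1923 without one, so that neither sort nor library differed. This comparison was added after values had been seen. Among cells with Cxcl12, 61.5% (58.0 to 65.0%) passed the arterial gate, against 7.54% (6.40 to 8.81%) without it. All 19 distal and all 14 proximal arterial genes were higher in the cells with Cxcl12, with median log2 ratios of 2.49 and 2.46, beside 0.04 over all genes. The lists hold many markers of the study's arterial clusters, of which the distal one was marked by high Cxcl12. The study also names Gja4 and Slc6a6 for their correlation with Cxcl12 in sorted cells. This direction was thus largely set beforehand and is no independent support. Gja4 had a log2 ratio of 2.53, Dkk2 4.16 and Atp13a3 3.60. The arterial medians thus lay above 0 in both comparisons, and further above it between cells with and without Cxcl12 than between the libraries. If the unsorted gate shares with and without Cxcl12 were applied at the sorted library's share of Cxcl12 cells, 33.6% of ECs would be arterial-gated, against the 38.7% observed. For cycling cells the same step gave 7.78% against 4.28% observed. It gave 2.80% against 6.14% for alveolar capillary and 0.457% against 1.12% for lymphatic cells, whose observed shares turned order without thinning and are not read.

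Genes of dividing cells were lower in the sorted ECs. All 20 cell cycle genes lay below 0 with intervals that excluded it, as did 2200 of all 8501 genes. Of the 20, 9 were at least 2-fold lower, where 2.41% of all genes were. Mki67, a marker of dividing cells, was at 43.6 CPM (41.9 to 45.3) in sorted ECs, 101 CPM (97.6 to 105) in unsorted ECs and 106 CPM (101 to 111) in the other unsorted library, a log2 ratio of -1.21. Top2a, the topoisomerase of mitosis, had a log2 ratio of -1.19, and the mitotic kinase Plk1 -1.36. The lowest ratio was that of Pcna, the replication clamp, with 11.8 against 33.3 CPM (log2 -1.45). The unsorted libraries were close to each other for these genes, unlike for arterial ones.

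The share of cycling-gated cells, with at least 3 UMIs of Mki67, Top2a, Birc5, Cenpf, Ube2c and Tpx2 together, was 4.28% (3.87 to 4.72%) in sorted and 9.91% (8.80 to 11.1%) in unsorted ECs, a difference of -5.63 percentage points (-7.23 to -4.09). Cells that passed the arterial gate first, 38.7% and 23.0% of ECs, could not enter it. The difference thus depends in part on the order of the gates. Other cells passed this gate as well, 7.66% of the sorted library's cells without endothelial UMIs and 2.54% of the unsorted epithelial cells. Many of the former were mesenchymal, and both kinds can divide themselves. Their shares are therefore not a background for ECs. The 6 genes of the gate are members of the list, so they cannot be read against it. The other 14 had a median log2 ratio of -0.84, which was 0.04 after reweighting to the unsorted shares, but Pcna stayed at -1.19 (a gene no gate used) and Mcm3, a replication helicase subunit, at -0.65. Within arterial-gated cells the median of the 14 was 0.36, and within ungated cells -0.41. Within the unsorted library, cycling-gated cells numbered 17 of 772 ECs with a Cxcl12 UMI (2.20%) and 250 of 1923 without one (exact 95% interval 11.5 to 14.6%). The arterial gate, which came first, had taken 475 of the 772 and 145 of the 1923. Part of this gap was therefore set by the order of the gates. All 20 genes were lower in the cells with Cxcl12, with a median log2 ratio of -1.67.

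The list of general capillary genes did not move as a group. Of 10 general capillary genes, 3 lay above and 7 below 0, with a median log2 ratio of -0.07. The low end held Aplnr, the apelin receptor, with 43.9 CPM in sorted, 93.8 CPM in unsorted and 160 CPM in the other unsorted ECs (log2 -1.09), and Gpihbp1, which anchors lipoprotein lipase on capillaries, with 446, 743 and 795 CPM (log2 -0.74). Plvap, a protein of the diaphragms of capillary openings, was at 419 and 442 CPM (log2 -0.08). Tek, the angiopoietin receptor, was higher (log2 0.68). Within the unsorted library the 10 genes had a median log2 ratio of -0.79 between ECs with and without a Cxcl12 UMI. Intervals lay below 0 for 6 of them and above 0 for 2. Tek was higher in the cells with Cxcl12 (log2 1.4995) and Aplnr lower (log2 -2.94). The list thus mixed genes that went with Cxcl12 detection and genes that went the other way. The fatty acid carriers Fabp4 (425 against 631 CPM, log2 -0.57) and Fabp5 (242 against 464 CPM, log2 -0.94), which belong to a list of capillary genes of systemic type, lay below 0 without reaching 2-fold, which they did against the other unsorted library (log2 -1.31 and -1.64). The other measured genes of that list, Cd36 and Tcf15, had log2 ratios of -0.19 and -0.30, and Tcf15 had -0.07 against the other unsorted library.

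Alveolar capillary genes stood apart from Cxcl12 detection. Within the unsorted library all 9 measured genes were lower in ECs with a Cxcl12 UMI, with a median log2 ratio of -2.24, and alveolar capillary-gated cells made up 0.518% (0.141 to 1.32%) of them against 4.94% (4.01 to 6.01%) of ECs without. These shares leave out cells that the arterial gate took first. Yet 8 of the 9 genes lay above 0 in sorted over unsorted ECs, with a median of 0.28, where 4977 of all 8501 genes lay above 0. Against the other unsorted library the median was 0.13. The summed level of the list was 1822 CPM in sorted, 1562 CPM in unsorted and 1839 CPM in the other unsorted ECs. Car4, the carbonic anhydrase that marks these cells, was at 91.5 CPM (89.1 to 94.0) in sorted, 52.8 CPM (50.2 to 55.5) in unsorted and 21.0 CPM (18.9 to 23.2) in the other unsorted ECs, a log2 ratio of 0.79. A Car4 UMI was found in 8.35% of sorted and 4.79% of unsorted thinned ECs. It was found in 0.450% of the sorted library's cells without endothelial UMIs and in 0% of the unsorted epithelial cells. Apln, the apelin ligand, did not differ beyond counting error (28.6 and 28.2 CPM, log2 0.02, -0.10 to 0.14). Emp2, a membrane protein with the highest ratio of the list, was at 190 and 60.5 CPM (log2 1.64). Epithelial cells express it too, and 44.5% of the unsorted epithelial cells held a UMI. Its expected free RNA, estimated as described further on, was 56.2% of the unsorted level, or 22.4% at the lower share given there. The size of this part is thus uncertain. If removed, it would raise the ratio.

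The gate of at least 3 UMIs of Car4, Ednrb, Fibin and Chst1 together held 6.14% of sorted and 3.67% of unsorted ECs. This share is not read as a difference, since without thinning the order of the libraries turned (11.4% sorted, 14.7% unsorted). Of the sorted library's cells without endothelial UMIs, 12.6% passed the gate and 36.0% had a Fibin UMI. Many of these cells were mesenchymal and may express such genes themselves, so their share is not a background for ECs.

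Venous and lymphatic ECs were few, and the intervals of their differences between these libraries included 0. Lymphatic-gated cells, with at least 2 UMIs of Prox1, Mmrn1 and Reln together, made up 1.12% (0.912 to 1.36%) of sorted and 0.631% (0.368 to 1.01%) of unsorted ECs, and venous-gated cells 0.257% (0.163 to 0.386%) and 0.371% (0.178 to 0.681%). The other unsorted library held more venous-gated cells (0.826%, 0.463 to 1.36%), and without thinning the differences were -0.127 percentage points for lymphatic and -2.65 for venous cells, so no order is read from these shares. Of 6 measured lymphatic genes, 1 was at least 2-fold higher, where 1.39% of all genes were: Ccl21a, the chemokine that lymphatic vessels secrete, at 170 CPM in sorted and 78.6 CPM in unsorted ECs (log2 1.11). This gene shares 73.0% of the 60-base words of its transcript end with near-identical copies, so its reads may be split among them. The lymphatic receptor gene Flt4 was at 39.6 and 38.9 CPM (log2 0.02). Of 6 measured genes of the venous list, 5 lay above 0 and 1 was at least 2-fold higher, beside 1.39% of all genes. Nr2f2, the transcription factor of vein identity and a gene of the gate, was the 1 below 0 (log2 -0.47). Its expected free RNA, estimated as described further on, was 121% of its unsorted level, or 48.2% at the lower share given there. The former cannot hold, so nothing is read from this ratio. Vwf, a clotting factor of large vessels, was at 217 and 122 CPM (log2 0.83) and Cpe at 43.1 and 20.2 CPM (log2 1.07). Within the unsorted library both were also higher in ECs with Cxcl12 (log2 3.08 and 1.78). Slc6a2, Bst1, Selp and Ackr1, the genes of veins proper, stayed under 2 CPM in both libraries' ECs. The venous gate took 9.01% of the sorted library's cells without endothelial UMIs, more than of its ECs, and 0.282% of the unsorted epithelial cells. Many of the former were mesenchymal and may express Nr2f2 themselves, so this is not a background for ECs.

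The receptors of CXCL12 lay below 0 without reaching 2-fold. Cxcr4 was at 32.7 CPM (31.3 to 34.2) in sorted, 62.8 CPM (59.9 to 65.7) in unsorted and 50.7 CPM (47.4 to 54.1) in the other unsorted ECs, a log2 ratio of -0.93. This went against Cxcl12 detection, since within the unsorted library Cxcr4 was higher in ECs with a Cxcl12 UMI (log2 1.58), as it was within the sorted library (log2 1.06). In arterial-gated cells the log2 ratio of Cxcr4 was -1.61. Ackr3 was at 51.9, 86.4 and 101 CPM (log2 -0.73), and it was lower in unsorted ECs with Cxcl12 than in those without (log2 -1.31). Dpp4, a peptidase that cleaves CXCL12, was at 14.6 and 8.82 CPM (log2 0.70). Nrg1 was too low to read, at 1.58 and 2.23 CPM.

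**Figure D3:**
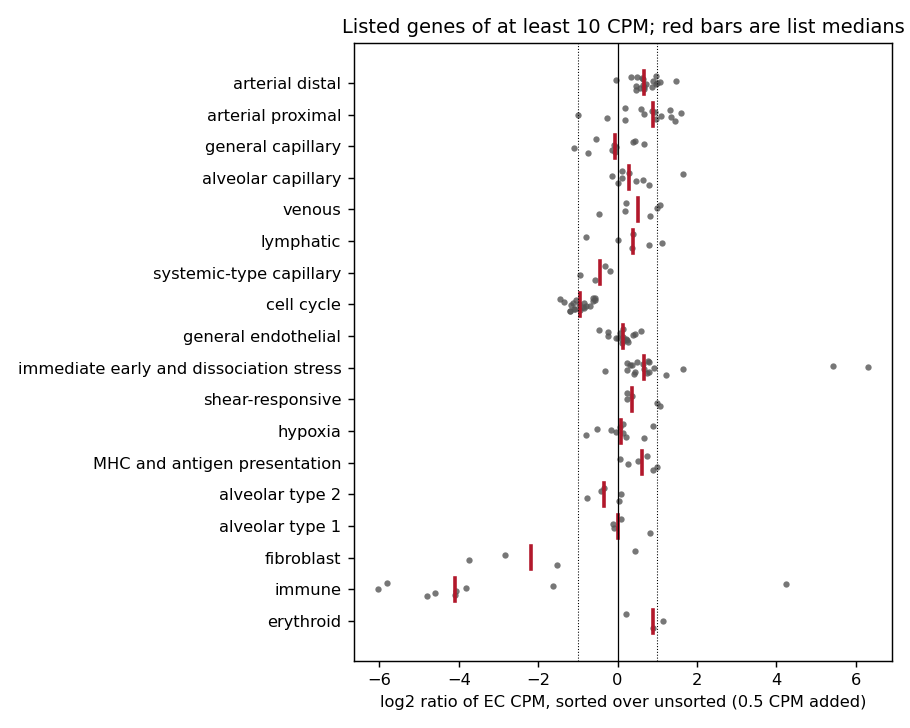
Log2 ratio of the EC level (CPM plus 0.5) in the sorted over the unsorted library for every listed gene of at least 10 CPM; each point is a gene, red bars are list medians and dotted lines mark 2-fold. Arterial medians lay at 0.66 and 0.90, the cell cycle median at -0.95 and the immune median at -4.10, while Hspa1a and Hspa1b stood apart at 6.31 and 5.43.

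The largest differences upward were in heat shock genes. Hspa1a and Hspa1b encode the inducible HSP70 chaperones and lie next to each other on chromosome 17 (GRCm38, minus strand, 34969190 to 34972156 and 34956436 to 34959238). Hspa1a was at 411 CPM (406 to 416) in sorted ECs, 4.68 CPM (3.91 to 5.55) in unsorted ECs and 4.41 CPM (3.48 to 5.51) in the other unsorted library, and at 33.7 and 232 CPM in sorted ECs of E15.5 and P8. Hspa1b was at 120, 2.30 and 2.69 CPM, and at 10.6 and 63.2 CPM at E15.5 and P8. Every one of these 3 sorted libraries lay above both unsorted ones. The count tables of these 3 also name another software version than the unsorted ones, which cannot be told apart from the sort. The log2 ratios at E18.5 were 6.31 (6.21 to 6.72) and 5.43 (5.35 to 6.08). The 0.5 CPM added to each level draws such ratios towards 0 where a level is low, and the intervals, made without it, lie higher. The transcript ends of these paralogs share no 60-base word, so their reads can be told apart.

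The heat shock genes differed in cells with and without endothelial UMIs alike. Hspa1a was found in 32.4% of thinned sorted ECs and 34.7% of the sorted library's cells without endothelial UMIs, against 0.742% of unsorted ECs and 0.845% of unsorted epithelial cells. Its log2 ratio was 4.95 in arterial-gated and 6.80 in ungated cells. Within the unsorted library the log2 ratio of ECs with over without Cxcl12 was 0.38 for Hspa1a, and within the sorted library -0.09. The promoters of both genes (RefSeq, GRCm38.p6, 250 bases before to 50 after the start of the gene, minus strand, chr17:34972107-34972406 and chr17:34959189-34959488) are printed because their genes had the highest ratios and moved together. They were identical at 296 of 300 positions. Capitals mark GAANNTTC, the paired repeat unit of the heat shock element, which reads the same on both strands; it was found once in each, starting 104 bases before the start, and in 7.86% of 32851 promoters of this length.
Hspa1a: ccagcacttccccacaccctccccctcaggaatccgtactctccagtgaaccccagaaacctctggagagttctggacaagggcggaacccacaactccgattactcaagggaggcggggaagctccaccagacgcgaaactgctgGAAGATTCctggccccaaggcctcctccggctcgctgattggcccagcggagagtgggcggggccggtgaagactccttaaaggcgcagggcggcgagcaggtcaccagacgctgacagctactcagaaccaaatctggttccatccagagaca
Hspa1b: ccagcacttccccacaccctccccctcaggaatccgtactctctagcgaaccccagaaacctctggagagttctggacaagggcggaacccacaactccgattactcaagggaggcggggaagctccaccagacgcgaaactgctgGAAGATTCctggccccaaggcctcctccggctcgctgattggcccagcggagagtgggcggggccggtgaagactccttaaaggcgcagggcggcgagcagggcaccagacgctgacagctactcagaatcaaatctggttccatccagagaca
Of the other genes in the list of immediate early and stress genes with a promoter in the table, Jun was the only one that held the motif, so 3 of 16 did.

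The remaining stress genes were higher by less. Of 19 genes, 18 lay above 0 and 4 were at least 2-fold higher, where 1.39% of all genes were: Hspa1a, Hspa1b, Atf3 and Fos. Atf3, a stress-induced transcription factor, was at 120, 37.7 and 50.6 CPM in sorted, unsorted and other unsorted ECs (log2 1.66), and Fos, an immediate early gene, at 1155, 499 and 561 CPM (log2 1.21). Egr1, also an immediate early gene, was the 1 gene below 0 (161 against 201 CPM, log2 -0.32), and it turned to 1.35 with counts adjusted for free RNA. The sorted E15.5 ECs held less Fos (188 CPM) than either unsorted library and the P8 ECs more (2373 CPM), so the order was not shared by all sorted libraries. The list holds genes known to respond to tissue dissociation. The sort, the embryos and the software version differed between the libraries, genotype may have differed as well, and these cannot be told apart. Within the unsorted library the list had a median log2 ratio of 0.13 between ECs with and without Cxcl12, beside 0.67 between the libraries.

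All 5 measured genes that respond to blood flow lay above 0, with a median log2 ratio of 0.37, and 1 was at least 2-fold higher, beside 1.39% of all genes. The transcription factors Klf2 and Klf4 had log2 ratios of 1.06 (2120 against 1017 CPM) and 0.98 (493 against 249 CPM). Nos3, the endothelial nitric oxide synthase, had 0.23 and the anticoagulant receptor gene Thbd 0.37. In unsorted ECs with Cxcl12 over those without, Klf2 had a log2 ratio of 0.997 and Thbd -0.79. In the list for antigen presentation all 6 measured genes lay above 0; H2-D1, a class I histocompatibility gene, was at 1495, 745 and 686 CPM (log2 1.00) and H2-K1 at 421, 227 and 234 CPM (log2 0.89). Of 10 genes induced by low oxygen, 6 lay above and 4 below 0, with a median of 0.09 and no gene 2-fold apart.

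**Figure D4:**
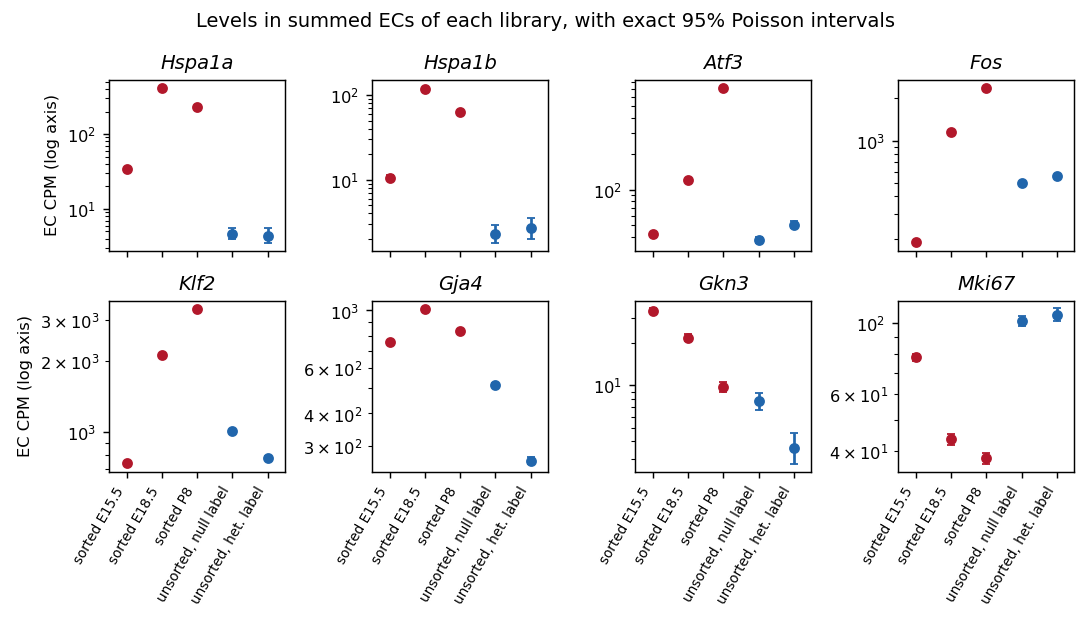
EC level (CPM, log axis, scaled for each gene) of 8 genes in 5 libraries; red points are sorted and blue points unsorted libraries, and lines are exact 95% Poisson intervals, many smaller than the point. Hspa1a and Hspa1b were higher in all 3 sorted libraries than in both unsorted ones, Mki67 was lower in all 3, and Gja4 was higher in all 3. The 3 sorted libraries also differ from both unsorted ones in software version.

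The order over libraries was counted for all genes. In the sorted E15.5, E18.5 and P8 ECs, 1227 (14.4%) were higher than in both unsorted libraries and 1310 (15.4%) lower. This order mixes age, sort and software version, since the count tables of these 3 name version 3.0.2 and both unsorted ones 3.1.0. It is therefore not a repeat of the sort. Of the arterial genes 7 of 19 and 6 of 14 were higher in all 3 sorted libraries, and of the 20 cell cycle genes 2 were lower in all 3, a share below that of all genes. E15.5 ECs held more of most cell cycle transcripts than the E18.5 libraries. The arterial share was thus above the share over all genes and the cell cycle share was not.

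The 12 genes with the highest ratios that met the naming limits were Hspa1b, Atf3, Gm10073, Gm10076, Tspan8, Cytl1, Isg15, Gm9946, Atp13a3, Ptprr, Wfdc1 and Fmo1. Gm9946, Ptprr, Wfdc1 and Atp13a3 were also the ones most tied to Cxcl12 within the unsorted library, with log2 ratios of 4.67, 3.71, 3.92 and 3.60 between ECs with and without it. Gm9946, a gene of unnamed function, was at 100 CPM in sorted, 33.9 CPM in unsorted and 15.9 CPM in the other unsorted ECs; it lies on the same chromosome as Cxcl12 (chromosome 6, 117559697 to 117572329, GRCm38), 378 kb after its end. Ptprr, a receptor-type tyrosine phosphatase, was at 76.9 and 27.8 CPM (log2 1.45), and Isg15, a ubiquitin-like protein induced by interferon, at 66.7, 22.3 and 41.2 CPM in sorted, unsorted and other unsorted ECs (log2 1.56, and 0.69 against the latter). Fmo1 was also under 2-fold against the other unsorted library (log2 0.93). Gm10076 (575 against 184 CPM) and Gm10073 (50.9 against 15.9 CPM) share 62.8% and 55.6% of the 60-base words of their transcript ends with Rpl41 and Rplp1, ribosomal protein genes, or their copies, so their counts are uncertain. Gm10076 was found in 65.7% of sorted ECs and 75.2% of the sorted library's cells without endothelial UMIs.

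The genes with the lowest ratios that met the naming limits included Arhgdib, Pfn1, Usf1, Cwc22, Otub1, Rnaset2a, Hjurp, Phpt1, Tuba1c, Hist1h1b and Mki67. Pfn1, which binds actin monomers, was at 289, 1409 and 1419 CPM in sorted, unsorted and other unsorted ECs (log2 -2.28). Its level followed the software version written in the count tables: 317 and 138 CPM at E15.5 and P8, whose tables name version 3.0.2 as the sorted E18.5 table does, and 944 CPM at E13.5, whose table names 3.1.0 as both unsorted tables do. Over all genes, 11 were lower by over 1.5-fold in the ECs of every 3.0.2 library than in those of every 3.1.0 library, among them Pfn1, Usf1, Cwc22 and Otub1, and 10 of these were among the 205 lower genes. In the other direction 2 genes were higher, Cytl1 and Rpl9-ps6. At E18.5 the software version and the sort cannot be told apart. Hjurp, Hist1h1b and Tuba1c had log2 ratios of -1.49, -1.28 and -1.33, which moved to -0.89, -0.24 and -0.51 with the unsorted gate shares. Against the other unsorted library Hjurp had -0.64. Arhgdib, abundant in blood cells, was at 15.4 and 80.3 CPM (log2 -2.34).

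Transcripts of other cell types were the largest differences downward. Of 9 immune genes, 8 were at least 2-fold lower in the sorted ECs, where 2.41% of all genes were, with a median log2 ratio of -4.10. Laptm5, among the 8, followed the software version in ECs, where the E13.5 level rests on 168 cells, but not over all cells of the libraries (0.916 CPM at E13.5, 3.86 CPM in the sorted E18.5 library). Lyz2, a lysozyme of macrophages, was at 25.3, 443 and 991 CPM in sorted, unsorted and other unsorted ECs, and Tyrobp, an adaptor of myeloid receptors, at 0.696, 77.5 and 165 CPM. The airway gene Scgb3a2 was at 0.153, 117 and 672 CPM. Sftpc, the surfactant gene of alveolar type 2 cells, hardly differed, with 494 and 482 CPM, but was at 1584 CPM in the other unsorted library. S100a9 was the 1 immune gene that was higher (24.0 against 0.780 CPM), and all of its UMIs lay in 1% of the ECs of either library. Of 4 fibroblast genes 3 were at least 2-fold lower (median log2 -2.17). The median was 1.93 with counts adjusted for free RNA, which changes the unsorted side only and left these 3 under 10 CPM on both sides. Of them, Mfap4 followed the software version, also over all cells (109 to 255 CPM for 3.0.2, 913 to 2554 CPM for 3.1.0). Mesenchymal cells split the libraries in the same way (41 to 1555 and 3155 to 7788 cells), so version and mesenchyme cannot be told apart here. Genes of smooth muscle and pericytes, 2 in number, had a median of -0.16. The platelet gene measured had a ratio of -3.01. All 3 haemoglobin genes were higher (median 0.90), but their median against the other unsorted library was -0.57. Of 81 ribosomal protein genes 79 lay below 0, with a median of -0.23.

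Most alveolar type 2 and airway UMIs lay in few cells, while others were spread. In the unsorted library the 27 ECs richest in each list, 1% of all, held 89.4% of the alveolar type 2 UMIs, 83.9% of the airway UMIs and 50.4% of the immune UMIs found in ECs, but 14.7% of the fibroblast UMIs. At least 1 such UMI was found in 43.6%, 27.3%, 31.8% and 71.7% of unsorted ECs for these lists. In the sorted library the richest 91 ECs held 97.0% of the alveolar type 2 and 95.8% of the immune UMIs. RNA free in the suspension, which would reach all cells, was estimated from the level of 4 such lists in ECs over their level in the whole library: 19.9% in the unsorted library, and 7.94% without the richest 1% of ECs for each list. The lists ranged from 10.1% (airway) to 50.7% (alveolar type 1, whose genes Clic5 and Hopx ECs held in 28.5% and 7.83% of cells). Without the richest ECs the alveolar type 2 and airway lists gave 1.49% and 1.67%, the immune list 15.2% and the alveolar type 1 list 40.2%. Taken at 19.9%, free RNA would make up over 50% of the unsorted EC level for 107 of the 205 lower and 26 of the 118 higher genes, and at 7.94% for 20 and 9. Even at 7.94% the expected part exceeded the whole unsorted level for genes such as Tcf21 (442%) and Acta2 (341%), which cannot hold. Both shares are thus too high for such genes, and these counts are not read as the number of genes due to free RNA. For Gja4, Gpihbp1, Mki67 and Cxcr4 the expected part at 19.9% was 6.42%, 6.22%, 13.1% and 7.96% of the unsorted level. For Fos and Hspa1a it was 68.2% and 60.3%, but 27.2% and 24.05% at the share of 7.94%, so its size is uncertain. If removed, it would lower the unsorted level and raise the ratio.

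When ECs with any immune, airway or alveolar type 2 UMI were left out (Sftpc and Laptm5 not counted), 8598 sorted and 1309 unsorted ECs stayed. The genes at least 2-fold lower then numbered 62, of which 55 were among the 205, and those higher 114, of which 91 were among the 118. This selection was added after values had been seen. It left out 1412 unsorted and 485 sorted ECs, and it takes its own genes to 0, 9 of which were among the 205, so nothing is read from the fall.

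**Figure D5:**
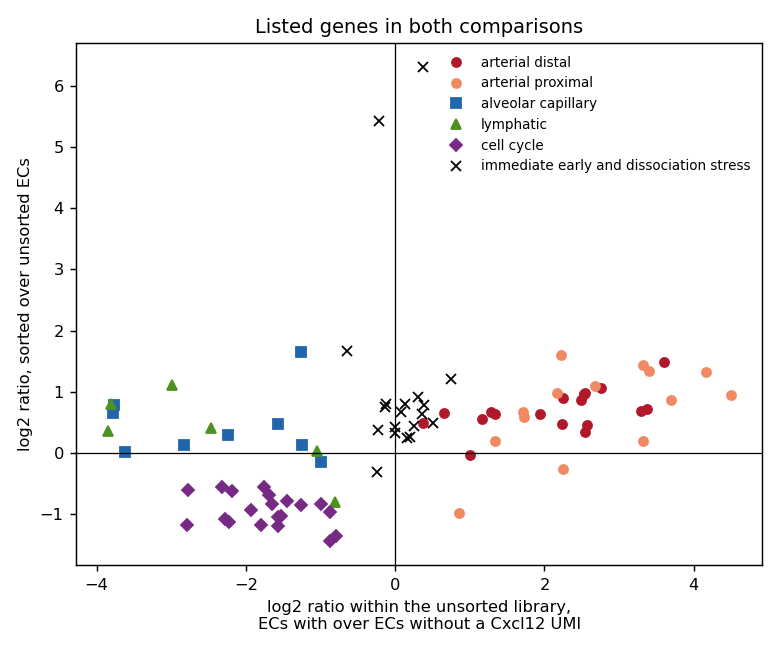
Log2 ratio of sorted over unsorted ECs (vertical axis) against the log2 ratio of ECs with over ECs without a Cxcl12 UMI inside the unsorted library (horizontal axis), for genes of 6 lists. Arterial genes lie to the right and mostly above 0, cell cycle genes to the left and below 0, most alveolar capillary and lymphatic genes to the left but above 0, and Hspa1a and Hspa1b high near 0 on the horizontal axis.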

How the data were processed

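Single-cell RNA libraries (10x Genomics 3′ v3 chemistry) of mouse lung were analysed, 1 library per group. The authors deposited count matrices of whole UMI counts per gene and barcode, aligned to mm10, with Cell Ranger 3.1 and Seurat 3.2.2 named in the submitters' processing notes; the file headers name 3.0.2 for the sorted E15.5, E18.5 and P8 libraries and 3.1.0 for the others. For the unsorted libraries the authors also deposited estimated counts, adjusted for free RNA with SoupX and not whole, which served as an alternative only. All value columns were mapped to samples.

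The cells, gene lists and gates were chosen with earlier results of these data known. UMIs of ECs were summed per library and expressed as CPM over 31053 genes. Log2 ratios carried a 0.5 CPM pseudocount, with exact 95% Poisson intervals for levels, exact conditional binomial intervals for ratios and Clopper-Pearson intervals for shares. Genes of at least 10 CPM in either sum were compared, and a 2-fold ratio was counted as a difference. With 1 library on each side there was no replicate test. Cells were thinned to 2000 UMIs (seed 1) for shares. Gates were applied in the order lymphatic, venous, arterial, alveolar capillary and cycling, and a cell entered the first that it passed. Beyond list members, the text names the 12 highest and 12 lowest ratios among genes of at least 50 CPM, leaving out haemoglobin, mitochondrial, ribosomal protein, sex-linked and selection genes, Gm42418, genes whose expected free RNA exceeded 50% of the unsorted level, and genes that turned direction with SoupX values or against the other unsorted library. An item that met this rule is not reported here. Single markers described beyond these were chosen after their values were seen.

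Doublets were kept in the reported values. Scrublet called 0 of 9542 kept cells in the sorted library, and 507 of 9157 in the unsorted one; the count of 0 is not read as an absence of doublets. Total EC UMIs were 58924064 in the sorted and 28221158 in the unsorted library. The ratio procedure was tested on simulated counts. Python 3.11.15 with numpy 2.4.6, scipy 1.17.1, pandas 2.3.3, scanpy 1.11.5 and matplotlib 3.10.9 was used. Alternatives covered the pseudocount, the level minimum, per-cell means, the other unsorted library, SoupX values, the cell limits, doublets and gate shares.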

Additional observations from a re-analysis of the deposited data

Results flagged for a closer look

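The following ratios pointed in opposite directions in different comparisons or gated groups, and none of the differences was tested. Xist, the RNA of the inactive X chromosome, had a log2 ratio of -1.48 in sorted ECs over the unsorted library labelled homozygous null. Over the library labelled heterozygous control it had 8.93. No Xist UMI was found in ECs there, so the latter value depends on the pseudocount. The sex-linked list, Xist and genes of the Y chromosome, still summed to 203 CPM there. In the pair compared, 4 of its 5 genes lay above 0 and Xist below. The mix of embryo sexes thus appears to differ between the libraries, which was not tested. Ccl21a had a log2 ratio of -1.47 in arterial-gated, 5.68 in cycling-gated and 4.61 in ungated ECs. The haemoglobin genes also turned with the gate: Hbb-bt had 2.24 in arterial-gated, -7.68 in cycling-gated and 1.49 in ungated ECs, Hbb-bs had 2.41, -5.53 and 2.29, and Hba-a1 had 2.88, -5.77 and 1.89. In both libraries over 95% of the erythroid UMIs of ECs lay in 1% of the cells. Acta2, an actin of smooth muscle, had 2.52 in cycling-gated and -1.002 in ungated ECs.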

How the results depend on the processing

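Each side was 1 library, so embryos and their sexes, sort, software version and any difference in genotype cannot be told apart. The intervals leave out all variation between lungs. No paired analysis was possible because each group has 1 library. Depth limited the lymphatic and venous shares, which rested on 17 and 10 unsorted cells.

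The 118 genes at least 2-fold higher in sorted ECs became 74 with a pseudocount of 5 CPM, 254 with no minimum level, 46 with a minimum of 50 CPM, 229 against the library labelled heterozygous control, 223 with SoupX values and 76 with the unsorted class shares. The 205 genes at least 2-fold lower in sorted ECs became 1053 with no minimum, 44 at 50 CPM, 132 with means of per-cell CPM, 366 against the library labelled heterozygous control, 331 without the collagen limit and 135 with Scrublet calls removed. With ECs holding immune, airway or alveolar type 2 UMIs left out, a choice made after seeing the data, they numbered 62. Removing the highest Scrublet scores, also chosen after seeing the data, gave 128 and 148. At least 5 endothelial UMIs gave 117 and 181, and at least 1000 genes gave 118 and 205. The number of genes compared also changed with the level minimum, from 8501 to 19939 with none and 3452 at 50 CPM. The number alone does not account for the lower genes, whose share of the genes compared fell as the minimum rose. The cause of these changes was not tested.

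The gate differences, in percentage points, moved for arterial cells to 12.6 with a minimum 1 UMI higher and 26.6 against the library labelled heterozygous control, for lymphatic cells to -0.127 without thinning, and for venous cells to -2.65 without thinning and -0.568 against that library. The alveolar capillary difference turned from 2.47 to -3.31 without thinning. The free RNA share of 19.9% became 10.1% from airway genes alone and 7.94% without the richest ECs, both chosen after seeing the data.

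Among single genes, 177 of 201 kept their direction against the library labelled heterozygous control, 180 of 199 with SoupX values and 181 of 201 with class shares, where 39 of 63 kept a 2-fold difference. Those at least 2-fold apart that turned were Ube2c (log2 ratio of Ube2c 0.011 with class shares, to which it is tied as a gene of the cycling gate), Xist (8.93) and Hbb-bs (-0.47) against the library labelled heterozygous control, and S100a8 (0.17, highest Scrublet scores removed). With SoupX values Col1a2 (1.81), Mfap4 (3.24) and Tcf21 (1.67) turned too, but lay under 10 CPM on both sides and are not in the counts above. The cause was not tested.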
